A study of Mus musculus with 24 samples.

Results

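The genes examined here were 10 features of mouse liver: the 3 enzymes that make serine (Phgdh, Psat1 and Psph), 5 enzymes of folate one-carbon metabolism (Shmt1, Shmt2, Aldh1l2, Mthfd2 and Mthfd1l) and a pair of features named only by number, Gm8096 and Gm6756. They were chosen as all array probes that carry one of these names, which gave 19 of 56605 probes, and 15 of the 19 passed a background filter that asks for detection on 6 or more of 24 arrays. All 10 had at least 1 such probe and so entered the set of 23966 genes tested. The set was assembled because members had been seen to differ between sugar-drinking and water-drinking mice in these arrays, so the 2 comparisons of a sugar with water are given below as descriptions, with no test of the members. The Gm features were included because they move with Psat1 and Phgdh in these arrays, so their correlations with these genes are descriptions too.

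Liver RNA came from 24 male C57Bl/6J mice of wild-type genotype, aged 8 weeks and kept on Safe 04 chow under a cycle of 12 hours of light and 12 hours of dark. They formed 4 groups of 6: fasted for 24 hours, fed with 20% glucose in the drinking water for 24 hours, fed with 20% fructose in the drinking water for 24 hours, and fed with plain tap water. Livers were taken at ZT16, where ZT counts the hours since the lights came on. Each mouse had 1 single-colour 60-base oligonucleotide array, and each of the 3 slides held 2 arrays of every group.

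Between 32516 and 36274 probes per array were well above background. The summed signal of 6 hepatocyte genes, relative to the array's 75th percentile of signal, lay between 4794 and 5326 on fasted arrays, 4240 and 4551 on glucose arrays, 3959 and 4331 on fructose arrays and 4332 and 5186 on water arrays, so the hepatocyte genes were far above that percentile in all groups. Of 6 markers of pancreatic acinar cells, Cpa1, Prss2 and Pnlip were too dim to be tested, and the other 3 summed to between 8.08 and 12.0 over all 24 arrays. In whole tissue, fewer cells of a type and less RNA per cell cannot be told apart.

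Serine is made from a glycolytic intermediate in 3 steps. Phgdh oxidises it, Psat1 adds an amino group taken from glutamate, and Psph removes the phosphate. The serine hydroxymethyltransferases, Shmt1 in the cytosol and Shmt2 in mitochondria, then pass a carbon from serine to folate and leave glycine. Inside mitochondria Mthfd2 oxidises the carbon on folate, Mthfd1l releases it as formate, and Aldh1l2 oxidises it to carbon dioxide with the gain of NADPH. Several of these genes are known targets of ATF4, the transcription factor of the amino acid response.

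The probes themselves bear on what the Gm features measure, so they are shown first. On mm9, the build of the array design, the single Phgdh probe lies at chr3:98117098-98117157 on the minus strand and the Gm8096 probe at chr8:29193693-29193752 on the minus strand. The files do not annotate exons, introns or UTRs at these positions. The end of the Gm8096 probe and the start of the Phgdh probe overlap in sequence by 36 bases, of which 33 match. The 3 differences, counted from 1 at the 5′ end of the Phgdh probe with the Phgdh base first, are G8A, G22A and C30T. Part of that overlap is printed 5′ to 3′, with the differing bases in capitals.

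Phgdh probe, bases 7 to 36: gGatcgcagaaccagGgcatctgCctgaac

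Gm8096 probe, bases 31 to 60: gAatcgcagaaccagAgcatctgTctgaac

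The Gm6756 probe overlaps the Phgdh probe by 51 bases, of which 45 match, and 31 of these stand in 1 unbroken run. The longest run shared between the probes of the 8 enzyme genes was 7 bases, and the Psat1 probe shared at most 6 bases with either Gm feature or with the features described next. Of 56604 other probes on the array, 1 shared a run of 20 bases with the Phgdh probe and 0 shared one with the Psat1 probe. The signals of Phgdh and the Gm features are therefore read as not fully separate, since labelled RNA of one could bind the probe of another, and how much did so was not tested.

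Ranked by the correlation of deviations from the group means, 3 further features stood nearest to Phgdh among 23919 others. They are NAP111644-1 (r = 0.957), ENSMUST00000119183 (r = 0.955) and ENSMUST00000172364 (r = 0.915), followed by Gm6756 and Gm8096. None of the 3 shared more than 7 bases in a row with the Phgdh probe. Only the 60 bases of that probe were compared, so likeness of the 3 features to the rest of the Phgdh RNA was not tested. Their signals are therefore not read as separate from that of Phgdh. They are shown because they share runs with each other or with Gm8096, printed in capitals: 19 bases between Gm8096 and NAP111644-1, and 26 bases between the other two. The probes lie on mm9 at chr8:13745796-13745855 (minus strand), chr2:21990925-21990984 (plus strand) and chr7:48921961-48922020 (minus strand), in the order of the last 3 lines.

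Gm8096: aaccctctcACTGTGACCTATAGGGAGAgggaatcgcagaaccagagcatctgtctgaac

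NAP111644-1: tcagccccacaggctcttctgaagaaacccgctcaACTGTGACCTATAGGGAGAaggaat

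ENSMUST00000119183: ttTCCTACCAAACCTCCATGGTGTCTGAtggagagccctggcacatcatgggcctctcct

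ENSMUST00000172364: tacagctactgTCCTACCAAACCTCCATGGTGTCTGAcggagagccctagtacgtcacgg

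Each level is the log2 of a signal over its array's 75th percentile, so that 0 is the 75th percentile and -1 is a signal of 50% of it. A probe's brightness also depends on its sequence, so levels are compared between groups and not between genes. For each gene the brightest probe that passed the background filter was used.

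**Figure D1:**
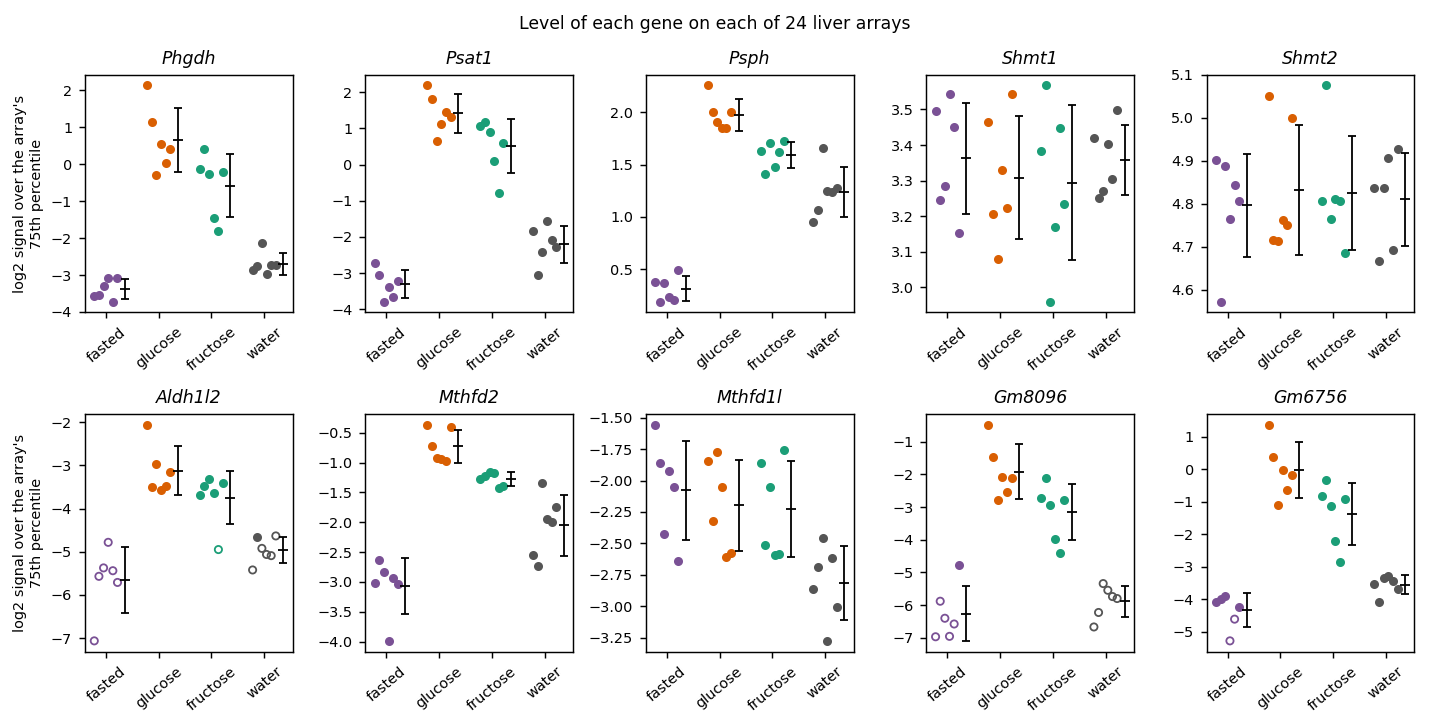
Level of each of the 10 genes (log2 signal over the array's 75th percentile) on each array, with fasted, glucose, fructose and water groups from left to right and 6 mice in each. Filled points were well above background and open points were not, and the bars beside the points give mean and SD. Phgdh, Psat1, Gm8096 and Gm6756 show every sugar array above every water array, while Shmt1 and Shmt2 overlap in all groups.

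The serine synthesis enzymes ran in the same order in all 3 genes: lowest after fasting, then water, then fructose, and highest with glucose. Phgdh ranged from -3.72 to -3.08 (median -3.42) in fasted mice, from -0.30 to 2.13 (median 0.49) with glucose, from -1.80 to 0.41 (median -0.25) with fructose and from -2.98 to -2.13 (median -2.75) with water. Only the 2 sugar groups overlapped. Psat1, whose probe lies at chr19:15979622-15979681, ranged from -3.79 to -2.73 (median -3.30) in fasted mice, from 0.64 to 2.19 (median 1.38) with glucose, from -0.79 to 1.19 (median 0.75) with fructose and from -3.06 to -1.55 (median -2.17) with water. The fasted and water groups overlapped, as did the 2 sugar groups, and every sugar array lay above every water array.

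Psph, whose probe lies at chr5:130271441-130271500, moved over a much narrower range. It lay between 0.19 and 0.49 (median 0.30) in fasted mice, between 1.85 and 2.26 (median 1.95) with glucose, between 1.41 and 1.72 (median 1.63) with fructose and between 0.95 and 1.66 (median 1.25) with water. The fasted group was below all others and the glucose group above all others, while fructose and water overlapped.

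Among the folate enzymes, both serine hydroxymethyltransferases were flat. Shmt1 (probe at chr11:60603099-60603158) had medians of 3.37 in fasted mice, 3.28 with glucose, 3.31 with fructose and 3.35 with water, within an overall range of 2.96 to 3.57. Shmt2 (probe at chr10:126954811-126954870) had medians of 4.83 in fasted mice, 4.76 with glucose, 4.81 with fructose and 4.84 with water, within 4.57 to 5.08. No pair of groups was separated for either gene.

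Mthfd2 (probe at chr6:83255861-83255920) followed the order of the serine enzymes. It ranged from -3.99 to -2.63 (median -2.97) in fasted mice, from -0.98 to -0.37 (median -0.83) with glucose, from -1.43 to -1.15 (median -1.25) with fructose and from -2.73 to -1.34 (median -1.97) with water. The glucose group stood above all others, and the remaining neighbours in the order overlapped.

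Aldh1l2 (probe at chr10:82950571-82950630) was at the limit of detection without sugar: it was well above background on 0 of 6 fasted arrays, 6 of 6 glucose arrays, 5 of 6 fructose arrays and 1 of 6 water arrays. Its levels ran from -7.06 to -4.78 (median -5.50) in fasted mice, from -3.57 to -2.06 (median -3.31) with glucose, from -4.95 to -3.32 (median -3.56) with fructose and from -5.42 to -4.63 (median -4.99) with water. Every glucose array lay above every water array, whereas 1 fructose array, at -4.95, lay among the water arrays.

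Mthfd1l (probe at chr10:6198416-6198475) departed from this order, being highest after fasting. It ranged from -2.64 to -1.55 (median -1.99) in fasted mice, from -2.61 to -1.78 (median -2.19) with glucose, from -2.59 to -1.76 (median -2.28) with fructose and from -3.28 to -2.46 (median -2.78) with water. Each group overlapped its neighbour in the order.

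Gm8096 was well above background on 1 of 6 fasted arrays, on 6 of 6 arrays of each sugar group and on 0 of 6 water arrays. It ranged from -6.97 to -4.76 (median -6.49) in fasted mice, from -2.79 to -0.47 (median -2.10) with glucose, from -4.39 to -2.10 (median -2.86) with fructose and from -6.67 to -5.34 (median -5.77) with water. Gm6756 ranged from -5.28 to -3.89 (median -4.15) in fasted mice, from -1.09 to 1.37 (median -0.10) with glucose, from -2.87 to -0.32 (median -1.03) with fructose and from -4.07 to -3.28 (median -3.47) with water. Both features had every sugar array above every water array, and the fasted and water groups overlapped.

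Fasting against plain feeding asks how these genes stand after 24 hours without food. Psat1, Psph and Mthfd2 fell and Mthfd1l rose in fasted livers, while Shmt1 and Shmt2 differed by less than their spread. That is 4 of 10 members called by limma at a Benjamini-Hochberg adjusted p under 0.05 over all 23966 genes, where 42.6% of all genes were called. By direction, 3 members were lower, against 20.9% of all genes, and 1 was higher, against 21.7% of all genes. The median log2 fold change was -0.69 for the members and 0.02 for all genes. The comparison shares its water arrays with the comparisons that brought the members together.

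Psph, the last step to serine, had the most precise fall, with a log2 fold change of -0.93 ± 0.10 (SE, 6 mice a group, limma adjusted p = 5.1e-08), or 1.90-fold lower in fasted livers. Psat1, the middle step, was 2.14-fold lower (95% interval of the log2 fold change -1.74 to -0.46, limma adjusted p = 0.00586). A normexp background correction gave Psat1 a log2 fold change of -0.52 and an adjusted p of 0.085, which ended the call. Its second kept probe was well above background on 0 of 6 fasted arrays and 1 of 6 water arrays, so it gave no usable fasting value.

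Mthfd2 was 2.03-fold lower in fasted livers (log2 fold change -1.02 ± 0.21, limma adjusted p = 0.000361), and its second probe gave -1.45. Mthfd1l had 0.74 ± 0.20 (limma adjusted p = 0.00411), or 1.67-fold higher, so these mitochondrial folate enzymes moved in opposite directions. Shmt1 had 0.00 (95% interval -0.20 to 0.20) and Shmt2 -0.01 (-0.17 to 0.14), though the second probe of Shmt2 gave 0.22 (0.03 to 0.42). Counts of cell-type markers are to be read against 21.7% of all genes higher and 20.9% lower in fasted livers. Of 5 cholangiocyte markers 3 were lower in fasted livers, with a summed signal of 3.53 to 9.48 on fasted arrays and 7.0 to 11.3 on water arrays. Proliferating-cell markers had 1 higher and 3 lower of 5 (sums of 1.81 to 2.76 on fasted and 1.86 to 2.48 on water arrays) and stellate markers 1 higher and 2 lower of 5 (82.3 to 98.1 on fasted and 60.5 to 92.7 on water arrays). Endothelial markers had 3 higher and 1 lower of 5 (40.2 to 54.6 on fasted and 43.5 to 53.2 on water arrays) and Kupffer markers 2 higher and 0 lower of 5 (68.4 to 111.5 on fasted and 61.0 to 85.8 on water arrays). Of the 2 red cell markers tested 1 was lower, Alas2 (log2 fold change -0.79). The other, Slc4a1, went the opposite way without a call (0.87, limma adjusted p = 0.0684). Red cell sums were 18.8 to 23.3 on fasted arrays and 28.7 to 39.2 on water arrays, without overlap. Adipocyte markers had 2 higher and 0 lower of 4. Their sums did not overlap, at 5.30 to 7.74 on fasted arrays and 4.29 to 5.02 on water arrays. Of the 6 hepatocyte genes 2 were higher and 1 lower. Lymphocyte markers had 0 higher and 1 lower of 5, and the 3 pancreatic acinar markers tested had no call. Neutrophil markers had 0 higher and 1 lower of 4, Ly6g (log2 fold change -0.31, limma adjusted p = 0.0227). The others rose without a call: S100a8 by 1.72 (adjusted p = 0.0825), S100a9 by 1.56 (adjusted p = 0.122) and Mpo by 1.02 (adjusted p = 0.0518). With slide as a block 1 neutrophil marker was called higher. Neutrophil sums were 0.928 to 21.97 on fasted arrays and 1.49 to 2.23 on water arrays. The part of these markers in the results was not tested.

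Phgdh illustrates how the spread entered the test. All 6 fasted arrays lay below all 6 water arrays, as they did for 12% of all genes, with 24.3% separated in either direction. Its log2 fold change was -0.68 ± 0.35, with a limma adjusted p of 0.129 in the fit over all 24 arrays. The standard error pools the SDs of the 4 groups, which for Phgdh were 0.27 in fasted mice, 0.87 with glucose, 0.86 with fructose and 0.30 with water. Fitted on the fasted and water arrays alone, the same change had an adjusted p of 0.00342. Gm6756 behaved likewise, with -0.79 ± 0.39 and an adjusted p of 0.112 over all arrays and 0.0141 over the 2 groups. Aldh1l2 (-0.69 ± 0.32, adjusted p = 0.0891) and Gm8096 (-0.37 ± 0.42, adjusted p = 0.53) were too dim in both groups to be compared. Without the fasted array of replicate 4, the adjusted p of Aldh1l2 was 0.0346.

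**Figure D2:**
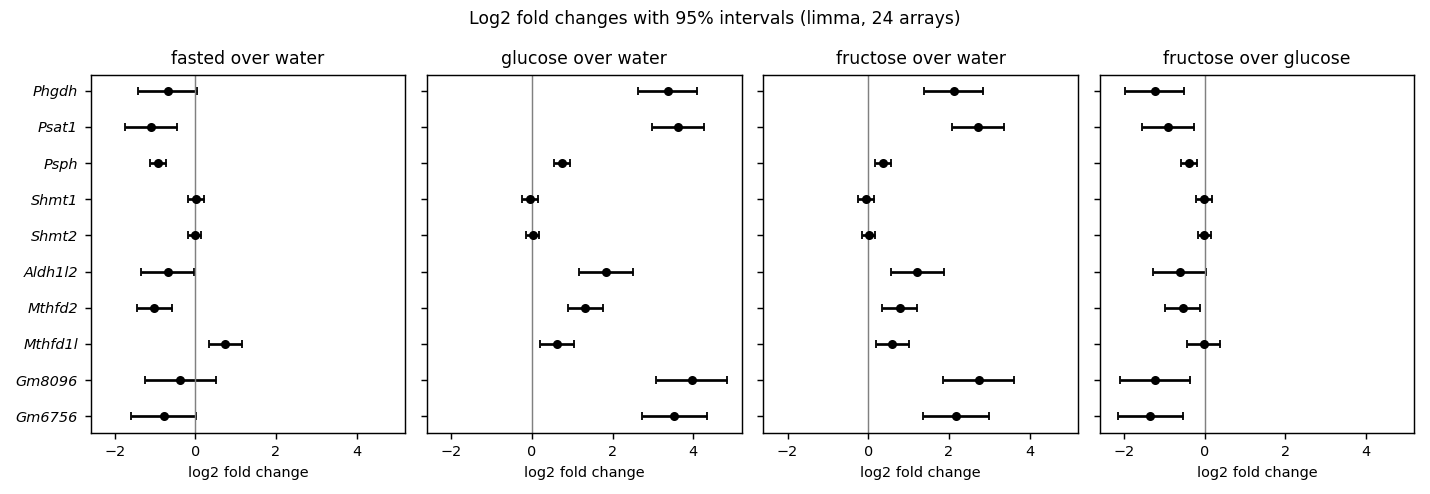
Log2 fold changes of the 10 genes with 95% intervals from limma, for fasted over water, glucose over water, fructose over water and fructose over glucose. Shmt1 and Shmt2 sit near 0 in all 4 panels, and Phgdh, Psat1, Gm8096 and Gm6756 lie at 2.12 or more in both comparisons of a sugar with water.

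Glucose against water and fructose against water are described without tests. With glucose, Psat1 stood 12.3-fold higher than with water (log2 fold change 3.63, 95% interval 2.98 to 4.27) and Phgdh 10.3-fold higher (3.36, interval 2.63 to 4.10). Gm6756 was 11.5-fold higher, and Gm8096, well above background on none of the water arrays, was at least 8.58-fold higher. That bound raises each water array to the dimmest probe that was well above background on it. It was computed for the main processing only. Over the 10 alternatives of processing and fit, the log2 fold change of Gm8096 lay between 1.06 and 4.00. Aldh1l2 was 3.58-fold higher by the main probe and 6.22-fold by its second probe, Mthfd2 2.51-fold, and Psph 1.67-fold. Each of these Aldh1l2 probes was well above background on only 1 of 6 water arrays. Over the 10 alternatives the log2 fold change of Aldh1l2 lay between 0.412 and 2.24. Mthfd1l was 1.54-fold higher, with 4 of 6 glucose arrays above all water arrays, and Shmt1 and Shmt2 were within 1.04-fold of water. The fit called 7 of the 10 members, where 0.83% of all genes were called in either direction and 0.409% were called higher. For the same 7 members all glucose arrays lay above all water arrays, as did 0.93% of all genes, with 1.43% separated downward and 2.36% either way. Since the members were chosen on this contrast, nothing is read from that count.

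With fructose the same 4 features had the largest changes, at smaller sizes. Psat1 was 6.58-fold higher than with water (log2 fold change 2.72, 95% interval 2.07 to 3.36), Phgdh 4.36-fold (2.12, interval 1.39 to 2.86), Gm6756 4.52-fold and Gm8096 at least 3.65-fold. The bound for Gm8096 again belongs to the main processing. Over the 10 alternatives its log2 fold change lay between 0.481 and 2.80. Aldh1l2 was 2.33-fold higher, from a base of 1 of 6 water arrays well above background. Mthfd2 was 1.72-fold higher, Mthfd1l 1.51-fold and Psph 1.28-fold. The fit called 4 of the 10 members, where 0.88% of all genes were called in either direction and 0.501% were called higher. The same 4 had all fructose arrays above all water arrays, as did 1.04% of all genes, with 1.77% separated either way. This count is likewise only the choice of members seen again. The second Psat1 probe gave 6.39-fold with glucose and 3.79-fold with fructose, lower than the main probe, from a base of 1 of 6 water arrays well above background.

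Fructose against glucose asks whether the sugars differ when each is drunk at 20%. No member passed the test, and neither did any of the 23966 genes (0% called by limma). At an unadjusted p under 0.05 there were 1869 genes, or 7.80%, and 6 of the 10 members. The 10 members all had a negative log2 fold change with a median of -0.59, against 0.00 for all genes, but these values share the sugar arrays on which the members were chosen. For Shmt1, Shmt2 and Mthfd1l the estimate was within 0.03 of 0 and turned positive under some alternatives.

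The sizes and intervals are as follows, each with a limma adjusted p over all genes. For Phgdh the estimate on the log2 scale was -1.24 (95% interval -1.97 to -0.51, adjusted p = 0.447), Gm6756 -1.35 (-2.16 to -0.54, adjusted p = 0.453) and Gm8096 -1.23 (-2.11 to -0.35, adjusted p = 0.496). Psat1 had -0.91 (-1.55 to -0.27, adjusted p = 0.495). Psph and Mthfd2 were the 2 members whose groups did not overlap, all 6 fructose arrays being below all 6 glucose arrays, where 0.25% of all genes were separated downward and 0.647% in either direction. Their log2 fold changes were -0.38 (-0.58 to -0.18, adjusted p = 0.427) for Psph and -0.55 (-0.98 to -0.11, adjusted p = 0.55) for Mthfd2. Aldh1l2 had -0.62 (-1.29 to 0.04, adjusted p = 0.667), and its second probe, detected on all 12 sugar arrays, had -1.07.

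The difference between the sugars was uneven over slides, but each slide value rests on 2 arrays a group. Slide 3 held the highest Phgdh of the glucose mice (2.13) and the lowest of the fructose mice (-1.80). Slides and differences between mice cannot be told apart here, and a slide effect was not tested. For Phgdh the mean log2 difference between the 2 fructose and the 2 glucose arrays of a slide was -1.45 on slide 1, -0.03 on slide 2 and -2.24 on slide 3. Psat1 gave -1.12, 0.02 and -1.62 on the same slides, and Gm8096 gave -1.44, 0.00 and -2.25. Psph was more even, at -0.33, -0.31 and -0.50, and so was Mthfd2, at -0.31, -0.37 and -0.96.

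Individual mice differed more in Phgdh when they drank sugar. Between the highest and lowest mouse of a group the signal differed 1.55-fold in fasted mice, 5.39-fold with glucose, 4.63-fold with fructose and 1.81-fold with water. Psph spread only 1.33-fold among the glucose mice and 1.24-fold among the fructose mice. The log2 SD of Psat1 was 0.39 in fasted mice, 0.54 with glucose, 0.74 with fructose and 0.52 with water. That of Mthfd2 was smaller with sugar, at 0.28 with glucose and 0.11 with fructose against 0.47 fasted and 0.51 with water. The spread of Phgdh was matched array by array by the Gm features. The probes differ, so only the constancy of the log2 difference between features can be read. The difference between Gm8096 and Phgdh varied by 0.14 log2 units over the 6 glucose arrays and by 0.16 over the 6 fructose arrays, while Phgdh itself varied by more than 2 in each group. The difference between Gm6756 and Phgdh varied by 0.22 over glucose arrays and by 0.37 over fructose arrays. In the groups where Gm8096 was mostly not above background, the difference from Phgdh varied by 2.19 over fasted arrays and by 1.23 over water arrays. Gm6756 was well above background on 4 of 6 fasted arrays and 6 of 6 water arrays. Its difference from Phgdh still varied by 1.75 over fasted arrays and by 1.02 over water arrays.

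**Figure D3:**
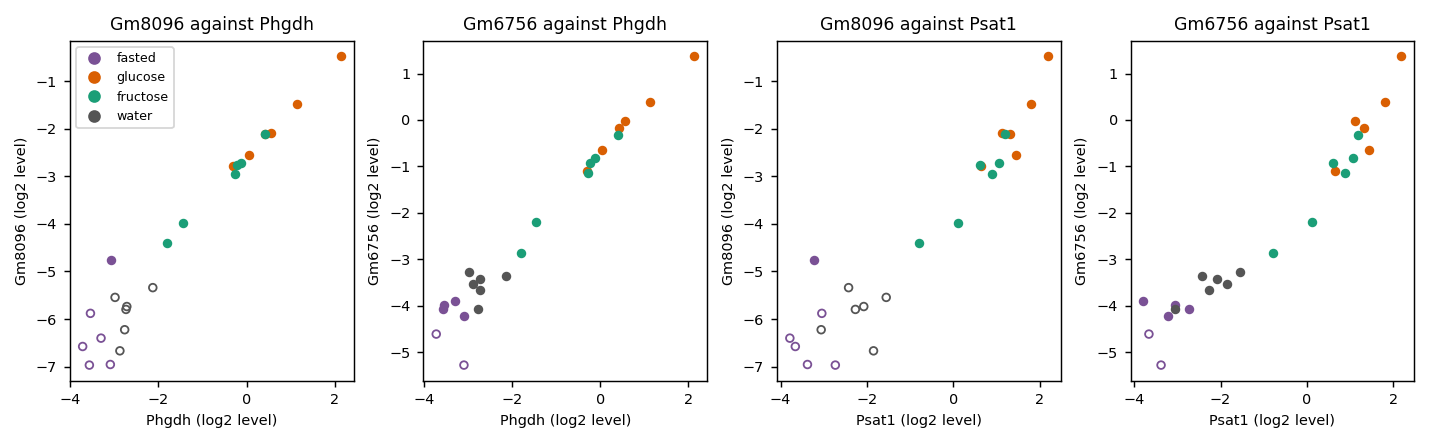
Levels of Gm8096 and Gm6756 on each of the 24 arrays against the levels of Phgdh and of Psat1 (log2 signal over the array's 75th percentile), coloured by group, with open points where the Gm feature was not well above background. Against Phgdh the sugar arrays lie on a line for both features, and against Psat1 they scatter more.

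How closely the Gm features track each possible parent gene was described on deviations from the group means, so that the group differences do not count. Since these features were included for moving with Psat1 and Phgdh, no p-value is given. The 24 arrays share slides, and Gm8096 was well above background on 13 of them, 12 of which were sugar arrays. Each Gm feature was set against each of the 8 enzyme genes. For Gm8096 the highest value was with Phgdh (Pearson r = 0.818, Spearman rho = 0.823), and r was 0.724 without the 2 arrays farthest from the median of Phgdh. With Psat1, Gm8096 had r = 0.60 and rho = 0.584, and r was 0.514 without the 2 farthest arrays.

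Gm6756 gave high values with both. With Phgdh r was 0.838 and rho was 0.731, and with Psat1 r was 0.792 and rho was 0.748. Without the 2 farthest arrays these r values were 0.722 with Phgdh and 0.716 with Psat1. The next were Gm8096 with Psph (r = 0.509) and with Mthfd2 (r = 0.478), and Gm6756 with Mthfd2 (r = 0.480). Phgdh and Psat1 themselves correlated at r = 0.657. With Psat1 held constant, the partial correlation with Phgdh was 0.702 for Gm8096 and 0.690 for Gm6756. With Phgdh held constant, that with Psat1 was 0.143 for Gm8096 and 0.587 for Gm6756. The difference between the 2 parents' correlations was not tested, and for Gm6756 the values do not single out 1 parent.

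Within single groups of 6 mice the values were high with either sugar. On glucose arrays Gm8096 and Phgdh had r = 0.999, and Gm6756 and Phgdh r = 0.995, with the 6 mice in the same rank order (rho = 1.00). On fructose arrays the values were 0.998 for Gm8096 and 0.994 for Gm6756, again in the same rank order. Psat1 gave r = 0.895 with Gm8096 and 0.897 with Gm6756 on glucose arrays, where rho was 0.771 for each. On fructose arrays Psat1 gave 0.942 with Gm8096 and 0.961 with Gm6756, where rho was 0.943 for each. In fasted mice r with Phgdh was 0.370 for Gm8096 and -0.316 for Gm6756, and r with Psat1 was 0.026 for Gm8096 and 0.201 for Gm6756. In water mice r with Phgdh was 0.511 for Gm8096 and 0.151 for Gm6756, and r with Psat1 was 0.10 for Gm8096 and 0.821 for Gm6756. Gm8096 was well above background on 1 fasted array and on 0 water arrays, and Gm6756 on 4 fasted arrays and on all 6 water arrays. Within slides, over 8 arrays each, r with Phgdh lay between 0.795 and 0.948 for Gm8096 and between 0.623 and 0.953 for Gm6756, while r with Psat1 lay between 0.395 and 0.988 for Gm8096 and between 0.331 and 0.958 for Gm6756.

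The 3 unnamed features were picked for their closeness to Phgdh, so their sugar values are given only as a description. Glucose arrays exceeded water arrays 10.3-fold for NAP111644-1, 7.67-fold for ENSMUST00000119183 and 9.81-fold for ENSMUST00000172364, near the 10.3-fold of Phgdh. In fasted mice none of the 3 was called, with log2 fold changes of -0.18 for NAP111644-1 (limma adjusted p = 0.737), 0.12 for ENSMUST00000119183 (adjusted p = 0.815) and -0.31 for ENSMUST00000172364 (adjusted p = 0.527).

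**Figure D4:**
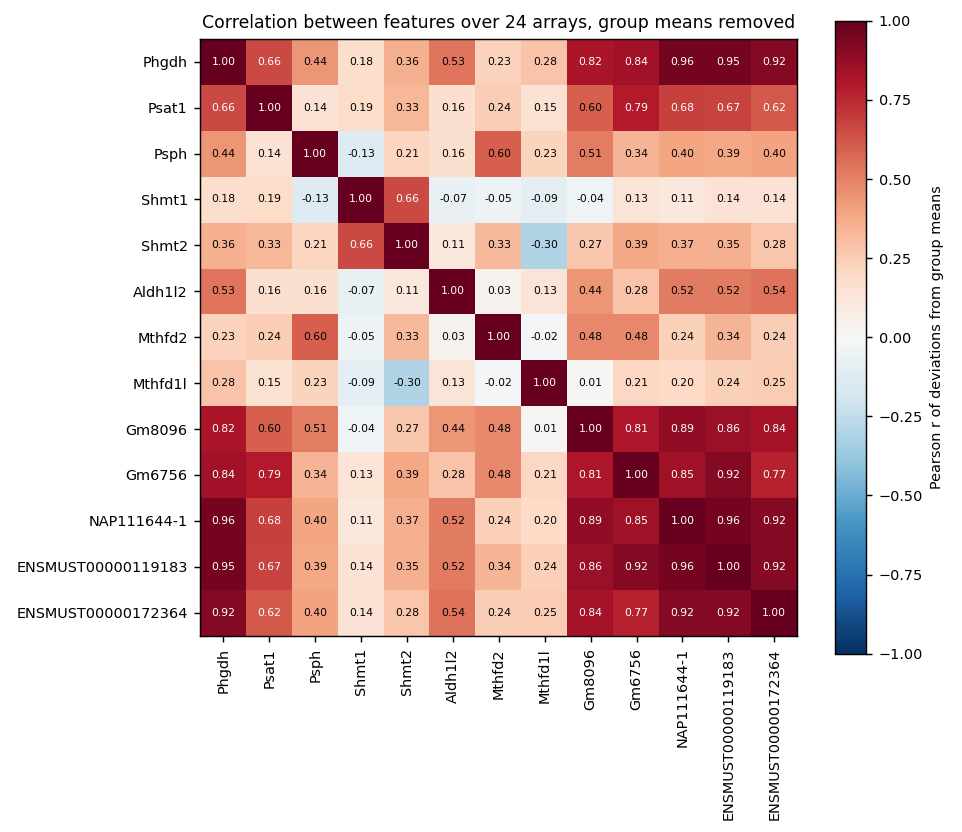
Pearson r over 24 arrays between the deviations from group means of the 10 genes and the 3 unnamed features nearest to Phgdh. Phgdh, both Gm features and the 3 unnamed features form a block with every r at 0.77 or more, Psat1 joins it at 0.60 to 0.79, and Shmt1 and Mthfd1l stay outside it. The signals of Phgdh, the Gm features and the unnamed features are not read as separate.

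The nearest features to Psat1 by the same measure, among 23919 others, were Gm6756 (r = 0.792), a long intergenic transcript feature of chromosome 8 (r = 0.713), Rufy1 (r = 0.697), Slc48a1 (r = 0.695) and a second such transcript feature, of chromosome 6 (r = 0.689), and Phgdh ranked 8. Over untouched levels the nearest to Psat1 were Gm6756 (r = 0.970), Phgdh (r = 0.960), the amino acid transporter Slc7a7 (r = 0.955), Gm8096 (r = 0.947) and ENSMUST00000172364 (r = 0.944). Over untouched levels the nearest to Phgdh were NAP111644-1 (r = 0.988), ENSMUST00000172364 (r = 0.987), Gm6756 (r = 0.980), Gm8096 (r = 0.974) and ENSMUST00000119183 (r = 0.972), and Psat1 ranked 6. Values over untouched levels hold the group differences, and all points share arrays. Among the enzymes, deviations of Psph went with those of Mthfd2 (r = 0.596) and those of Shmt1 with Shmt2 (r = 0.658), whereas Psph and Psat1 had r = 0.143.

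The genes that use, break down and carry serine and folate were taken from 9 other lists. These lists were chosen with earlier results of these data known, so their counts and p-values are read as descriptions. In fasted livers 21.7% of all genes were higher and 20.9% lower, and each list's counts are to be read against these shares. Of 7 genes of serine breakdown and serine-glyoxylate exchange 4 were higher and 0 lower in fasted livers (limma, adjusted over all genes). Sds, a serine dehydratase, was 3.66-fold higher (adjusted p = 7.24e-10), Sdsl 3.08-fold (adjusted p = 1.35e-09) and Agxt, which moves the amino group of serine or alanine, 2.04-fold (adjusted p = 0.00133). Of 10 serine and glycine transporters 7 were higher and 0 lower, led by the neutral amino acid transporter Slc1a4 at 3.38-fold, Slc38a4 at 1.80-fold and Sfxn2, a mitochondrial serine carrier family member, at 1.66-fold. The median log2 fold change was 0.40 for breakdown and 0.38 for transport, against 0.02 for all genes.

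Of the other folate enzymes and carriers 6 of 16 were higher and 4 lower in fasted livers, against 21.7% higher and 20.9% lower of all genes. Slc25a32, the mitochondrial folate carrier, was 3.15-fold higher and the folate carrier Slc19a1 1.81-fold higher. In the glycine list 6 of 11 were higher and 3 lower, with Gldc of the glycine cleavage system 2.51-fold higher, Gnmt 1.76-fold higher and Gatm, which starts creatine synthesis, 2.78-fold lower. In the methionine cycle and transsulfuration 7 of 11 were higher and 2 lower, with Cth 5.00-fold, Mat1a 4.23-fold and Ahcy 2.55-fold higher. Sphingolipid and phospholipid genes (2 higher and 2 lower of 7) and purine synthesis genes (2 higher and 3 lower of 8) moved by at most 1.60-fold.

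Of 19 measured genes of the ATF4 and amino acid response 9 were higher and 3 lower in fasted livers, against 21.7% and 20.9% of all genes. Fgf21, a fasting hormone of the liver, was 24.8-fold higher, asparagine synthetase Asns 4.66-fold and Ddit4 4.48-fold. The 3 lower genes, named after their values were seen, were Ddit3 (log2 fold change -1.08), Atf4 itself (-0.25, adjusted p = 0.0494) and Aars (-0.22). Of 8 NRF2 targets 4 were higher and 1 lower, led by Nqo1 at 2.27-fold.

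The comparisons of a sugar with water carry the same limit for these lists, and nothing is read from the counts beyond description. With glucose 4 of 19 ATF4-response genes were higher and 0 lower than with water, where 0.409% of all genes were higher. Fgf21 was 21.2-fold higher (limma adjusted p = 2.41e-05), Nupr1 3.60-fold (adjusted p = 2.41e-05), Atf5 2.23-fold (adjusted p = 1.33e-06) and Pck2 stood higher by 0.90 on the log2 scale (adjusted p = 0.000101). With fructose, where 0.501% of all genes were higher, the same 4 were higher, Fgf21 10.9-fold (adjusted p = 0.00148), Nupr1 2.13-fold (adjusted p = 0.0147), Atf5 1.74-fold (adjusted p = 0.000408) and Pck2 by 0.55 on the log2 scale (adjusted p = 0.0209). Among serine breakdown genes, Agxt was 2.35-fold lower with glucose (adjusted p = 0.014) and 3.17-fold lower with fructose (adjusted p = 0.00148), Sds was 1.69-fold lower with glucose (adjusted p = 0.0131) and Agxt2 1.39-fold lower with fructose (adjusted p = 0.0452). That made 2 of 7 lower with each sugar, where 0.421% of all genes were lower with glucose and 0.38% with fructose.

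In transport, Slc6a9, a glycine transporter, was 1.38-fold higher and Slc38a4 1.32-fold lower with glucose, and with fructose they were 1.29-fold higher and 1.22-fold lower. The call for Slc6a9 with fructose was lost with slide as a block. With glucose Gnmt was 1.42-fold lower (adjusted p = 0.0196), Sardh 1.31-fold lower (adjusted p = 0.0183) and Ahcy 1.45-fold lower (adjusted p = 0.00367). Of the 16 other folate genes 0 were called with glucose and 1 with fructose, Slc19a1 at 1.44-fold higher (adjusted p = 0.0258). No gene of the lists for purine synthesis, sphingolipids and phospholipids or NRF2 targets passed the test with either sugar, although with slide as a block 1 NRF2 target was called higher with glucose, and none of the 9 lists held a call between fructose and glucose.

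**Figure D5:**
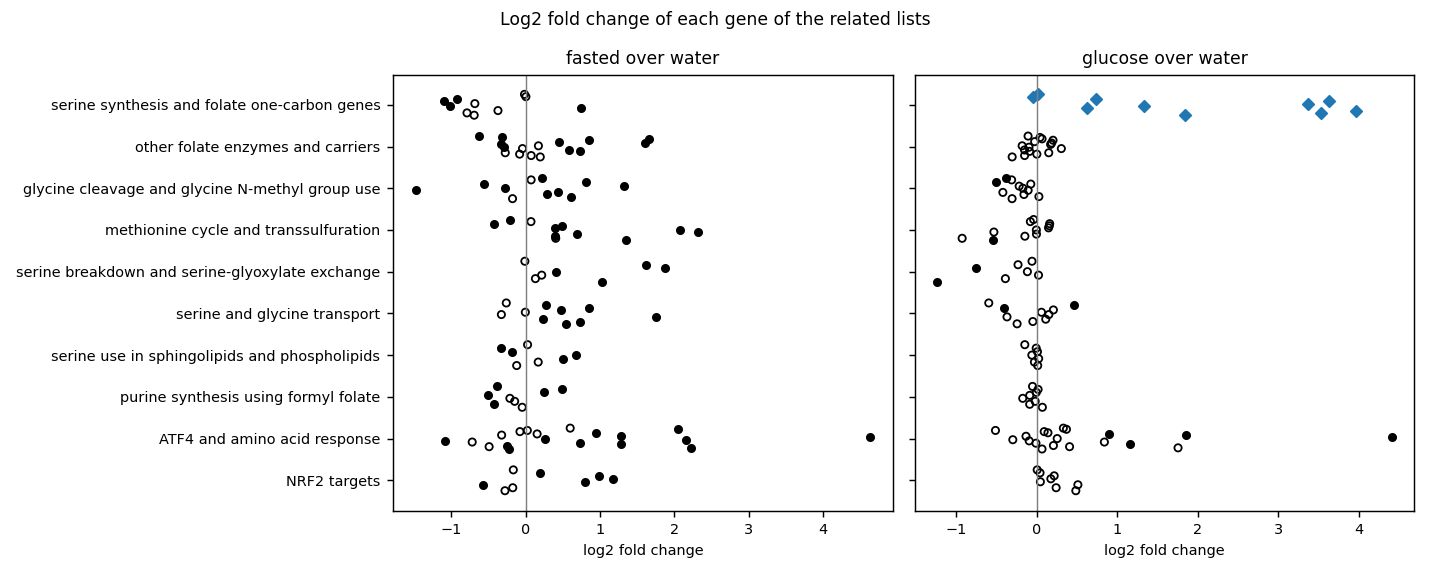
Log2 fold change of each gene, by list, in fasted over water and in glucose over water mice (limma). Filled points passed an adjusted p of 0.05 over all genes and open points did not, and diamonds mark the serine and folate genes where they are shown without a test. In fasted livers the breakdown and transport lists hold filled points only above 0. With glucose most points of the lists other than the serine and folate genes lie between -1 and 1.

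Promoter windows of 7 of the enzyme genes, from 250 bases before to 50 after the RefSeq start (GRCm38.p6), were searched on both strands. The ATF4 composite element TGATGNAA was in 0 of their 8 windows and in 3.97% of all 32851 windows. The antioxidant response element TGACNNNGC was in 2 of the 8, those of Phgdh and Psph, and in 12.4% of all windows, and the E-box CACGTG was in 0 of the 8 and 7.15% of all. A letter match in a short window says nothing about binding.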

How the data were processed

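Per the file headers and the labels, 1 Agilent array was run per mouse. The scanner files hold, for each spot, an intensity that Agilent Feature Extraction 10.10.1.1 made by background subtraction and detrending within the array (per the submitters' processing notes and the file headers). The authors also deposited a table of log2 values, for which the notes name limma without a version. Its exact steps are not given in the sources used here, and it served as an alternative. Of 62976 spots per array 59305 were not controls. Processed intensities were taken to log2, flagged spots left out, spots of a probe averaged and the array's 75th percentile subtracted. Probes well above background on at least 6 of 24 arrays were kept, 36230 of 56605, and the brightest represented its gene. The 23966 genes were named by accession (15655), symbol (1736), synonym (103) or the array's own name (6472), through RefSeq of GRCm38.p6. Probe coordinates, on mm9, come from the array's design.

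Group means of all 24 arrays were fitted in limma 3.58.1 (R 4.3.3), with Benjamini-Hochberg adjustment over all genes and calls at 0.05. Errors are the fit's standard errors. Arrays give no counts, so their number and the signal over background limit precision. Correlations of the Gm features were computed in Python 3.11.15 with numpy 2.4.6 and are given without p-values, since these features were included for moving with Psat1 and Phgdh. Both steps were tested on simulated data. The replicate numbers were not used as pairs in the main fit. Between groups, deviations of same-numbered arrays correlated at 0.0334 on average over 36 pairs, of which 9 exceeded 0.1. Those of different-numbered arrays correlated at -0.0067 on average over 180 pairs, of which 25 exceeded 0.1. Whether the numbers pair the mice was not tested, and replicate number as a block was an alternative. The members and all lists were chosen with earlier results of these data known. The named genes are all members, up to 3 genes of each other list per comparison (called genes with the largest change first, otherwise those with the lowest p) and the 5 nearest features of Phgdh, Psat1 and the Gm features; not all are given. Pck2, Ddit3, Atf4 and Aars were added after their values were seen. Alternatives changed the background correction, scaling, filter, probe rule, value table, blocks, arrays fitted and each left-out array.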

Additional observations from a re-analysis of the deposited data

Results flagged for a closer look

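In 5 of 40 sets of 6 values (10 genes in 4 groups) the highest or lowest array lay far from the other 5 by Dixon's criterion, which chance meets in about 1 in 20 sets. The Phgdh level of water replicate 3 was -2.13, where the next highest water array had -2.72. Psph of glucose replicate 1 was 2.26, with the next at 2.00, and this mouse also had the highest Phgdh and Psat1. Shmt2 of fructose replicate 2 was 5.08, with the next at 4.81. Aldh1l2 of fructose replicate 5 was -4.95, with the next lowest at -3.68, and this mouse also had the lowest Phgdh and Psat1 of the fructose group. Mthfd2 of fasted replicate 4 was -3.99, with the next lowest at -3.03. Another Aldh1l2 probe, too dim to be kept, was well above background on 3 of 6 glucose arrays and on 0 arrays of the fasted, fructose and water groups.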

How the results depend on the processing

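The members' calls held over most alternatives. In fasted against water mice 3 members were lower in every alternative but 2 of the 10 that keep all arrays: 2 with the normexp background correction and 5 with only the 2 groups fitted, and 3 to 4 with any 1 array left out. With glucose 7 members were higher throughout, with fructose 4 to 6, and between the sugars 0. The sizes for the dim features depended on the processing. Over the 10 alternatives, the log2 fold change of Gm8096 lay between 1.06 and 4.00 with glucose and between 0.481 and 2.80 with fructose. That of Aldh1l2 lay between 0.412 and 2.24 with glucose and between 0.17 and 1.39 with fructose. Gm8096 with Psat1 had r = 0.45 when probes of a gene were averaged, and 0.497 to 0.695 with 1 array left out. Counts over all genes moved more than the counts of members. With fructose, genes higher than with water numbered 120, but 235 in the authors' deposited values, 56 with median scaling, 56 with no filter, 268 with normexp, 58 with only the 2 groups and 203 with quantile normalization, and 46 to 250 with 1 array left out. Lower genes numbered 91, but 19 with median scaling, 23 with no filter, 277 with normexp and 16 with only the 2 groups, and 19 to 163 with 1 array left out. With glucose, higher genes numbered 98, but 149 in the authors' deposited values, 54 with median scaling and 64 with no filter, and 54 to 87 with 1 array left out. Lower genes numbered 101, but 36 with median scaling, 56 with no filter and 184 with only the 2 groups, and 46 to 85 with 1 array left out. Between fructose and glucose, 1 gene was higher with averaged probes, with no filter or with normexp, and 0 to 1 with 1 array left out, and 1 was lower with averaged probes and 3 with normexp, and 0 to 2 with 1 array left out. The cause was not tested. Log2 changes near 0 changed sign. In fasted mice Shmt1 was at -0.0281 in the authors' deposited values, -0.0423 with averaged probes, -0.00266 with median scaling, -0.039 with quantile normalization and -0.0321 to 0.0464 with 1 array left out, and Shmt2 was at 0.104 with averaged probes and -0.0435 to 0.03 with 1 array left out. Between fructose and glucose Shmt1 was at 0.00945 and Shmt2 at 0.0164 with median scaling, Shmt2 at 0.00539 with normexp and Mthfd1l at 0.0493 in the authors' deposited values. With 1 array left out they lay between -0.0693 and 0.0522 for Shmt1, -0.0577 and 0.0364 for Shmt2 and -0.12 and 0.0579 for Mthfd1l.

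With replicate number as a block no member's call changed in fasted against water or fructose against glucose mice, 7 members were called with glucose and 4 with fructose, and all genes called numbered 5196 higher and 4972 lower in fasted against water mice, 88 and 82 with glucose, and 102 and 65 with fructose. Under the replicate block r was 0.814 for Gm8096 with Phgdh and 0.769 for Gm6756 with Phgdh. Signal over background limits what fasting can show for Aldh1l2 and Gm8096, which were well above background on at most 1 of 6 arrays in the fasted group and in the water group.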
